A study of Andrias davidianus with 4 samples.

Results

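The unigenes described here are 42 transcripts of giant salamander skin that were abundant in albino skin libraries and still read, at a low level, in wild type skin libraries. A unigene is an assembled transcript sequence, and the study measured 110708 of them in 2 albino and 2 wild type skin libraries of the Chinese giant salamander, Andrias davidianus. Members were chosen on CPM, the unique counts of a unigene per 1000000 unique counts of the library. They had a mean albino CPM of at least 20 and a mean wild type CPM of at most 1/8 of it. They also had at least 1 unique count in each wild type library, albino replicates within 2-fold of each other, and a place outside the 200 most abundant unigenes. The level and the contrast between the groups thus chose the members, so both are given as a description and not as a test. The albino group carries the genotype label albino type and the wild type group the label wild type. All 4 samples are skin, and the labels give no age, sex, treatment or batch and do not say whether replicates came from separate animals.

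Amphibian skin owes its colour to pigment cells of neural crest origin: melanophores, which make melanin, xanthophores, which hold yellow and red pigments, and iridophores, which reflect light from crystals. Albino animals lack most or all melanin while the other skin tissues, such as the epidermis and the mucous and granular glands, remain. Skin RNA therefore holds transcripts of many cell types besides the pigment cells. In such bulk samples, fewer cells of a type and less RNA per cell cannot be told apart. No gene name is paired with a unigene in the files, so no member can be assigned a gene, a function or a cell type. Neither the skin identity nor the pigment cells could be checked against marker genes, and the 20 pigment genes listed for this purpose could not be looked up. Only 2 members are named by identifier, and the others are called by their length in bases, which differs for each of the 42.

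Depth was alike in the groups, at 17361979 and 17547197 unique counts for albino skin and 16854176 and 17256053 for wild type skin. A level resting on a count of 3 corresponded to 0.171 to 0.178 CPM. Together the members took 67418 and 65008 reads in albino skin, against 3455 and 4050 in the wild type libraries. That is 0.388% and 0.370% of the albino counts and 0.0205% and 0.0235% of the wild type counts. The first 3 members by albino level made up 35.6% and 31.0% of the members' counts in albino skin, and 20.4% and 18.7% in wild type skin.

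The rule was met by few unigenes. Of 5408 unigenes with a mean albino CPM of at least 20, the ratio limit kept 76, the minimum in wild type 65, and the limit on the albino replicates 42. Excluding the 200 most abundant removed none. The minimum in wild type alone kept out 9 unigenes, of which 7 had no count in either wild type library and 2 had 1 count in a single library. The limit on the albino replicates alone kept out 23, and without albino replicate 1, where that limit cannot be applied, 77 unigenes met the rule, 38 of them members. The mirror of the rule, for unigenes lower in albino skin but still read there, found 57.

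The fit across all unigenes used the same contrast as the rule, so its values for the members are a description. EdgeR's quasi-likelihood test with Benjamini-Hochberg adjustment called 6170 of 37893 tested unigenes higher in albino skin at an adjusted p under 0.05, which is 16.3%, and these included all 42 members. Every member passed the filter on low counts. The fitted log2 fold changes of the members ran from 3.01 to 8.82, with a highest edgeR adjusted p of 0.00294. Their standard errors (SE), from 0.13 to 0.51, were back-calculated as the fold over the square root of the test's F value. At very low counts these can be too small. For the member of 2608 bases, with 2 and 2 wild type counts, the value was 0.27, against 0.76 from DESeq2. A difference was not limited to such counts. For the member of 2374 bases, with 68 and 158 wild type counts, it was 0.51 against 0.77. The SEs of the other members are not compared here. DESeq2 called 10.4% of the same 37893 unigenes higher. Limma on log2(FPKM + 1) called 14.3% of the 54129 that passed its own FPKM filter, and each again included the 42. The lowest fitted log2 fold of a member was 2.49 without albino replicate 1 and 3.06 without albino replicate 2. It was 2.63 without wild type replicate 1 and 2.82 without wild type replicate 2.

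The most abundant member in albino skin was UniGene_156622, 8746 bases long. Albino skin gave 11221 and 7768 unique counts, against 673 and 735 in the wild type libraries. Its mean was 544 ± 144 CPM in albino skin and 41.3 ± 1.88 CPM in wild type skin (SD, n = 2 each), a ratio of 13.2 (fitted log2 fold change 3.70, SE 0.27, edgeR adjusted p = 0.000570). Both albino values lay at least 10.4 times above both wild type values, although the albino libraries differed from each other by 1.46-fold. By mean level it stood at place 219 among all unigenes in albino skin and at place 2657 in wild type skin.

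UniGene_171704, 956 bases long, had the largest ratio of albino to wild type level. Albino skin gave 7397 and 5873 unique counts for it, against 10 and 18 in the wild type libraries. The mean was 380.4 ± 64.6 CPM in albino skin and 0.818 ± 0.318 CPM in wild type skin (SD, n = 2 each), a ratio of 465 (fitted log2 fold change 8.82, SE 0.35, edgeR adjusted p = 0.000158). The counting interval of the ratio ran from 320.3 to 697 (exact, 95%), because only 28 wild type reads stand behind it. This unigene held place 300 in albino skin and place 30331 in wild type skin.

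The third member by albino level was also the longest, at 13115 bases. It had 5368 and 6506 counts in the albino libraries, against 23 and 5 in the wild type libraries, a ratio of 411 with a counting interval from 287 to 624. The wild type libraries differed from each other by 4.71-fold, the widest such gap of any member, yet the higher of them lay 227 times below the lower albino value. The member of 2115 bases had 4005 and 4487 counts in albino skin, against 59 and 57 in wild type skin, a ratio of 71.5. Its replicates lay close together, 1.11-fold apart in albino and 1.06-fold apart in wild type.

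The next 6 members by albino level had smaller ratios, from 8.37 to 23.7. The member of 2820 bases had 2945 and 2934 counts in the albino libraries, against 234 and 455 in the wild type libraries. Its albino values lay 1.01-fold apart while its wild type values lay 1.90-fold apart, so that the ratio within same-numbered libraries was 12.2 for replicate 1 and 6.34 for replicate 2. The member of 908 bases had 2757 and 3038 counts in albino, against 268 and 287 in wild type. The member of 2374 bases had 3573 and 1873 counts in albino, against 68 and 158 in wild type, with the albino values 1.93-fold apart, which is the widest albino gap of any member. Its replicate 1 libraries alone gave a ratio of 51.0 and its replicate 2 libraries 11.7. The member of 3999 bases had 2562 and 2726 counts in albino, against 148 and 87 in wild type. The member of 1115 bases had 2142 and 1719 counts in albino, against 175 and 231 in wild type. The member of 2394 bases had 1472 and 1873 counts in albino, against 189 and 176 in wild type. All 6 were read well above the counting floor in each wild type library, the lowest count being 68.

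**Figure D1:**
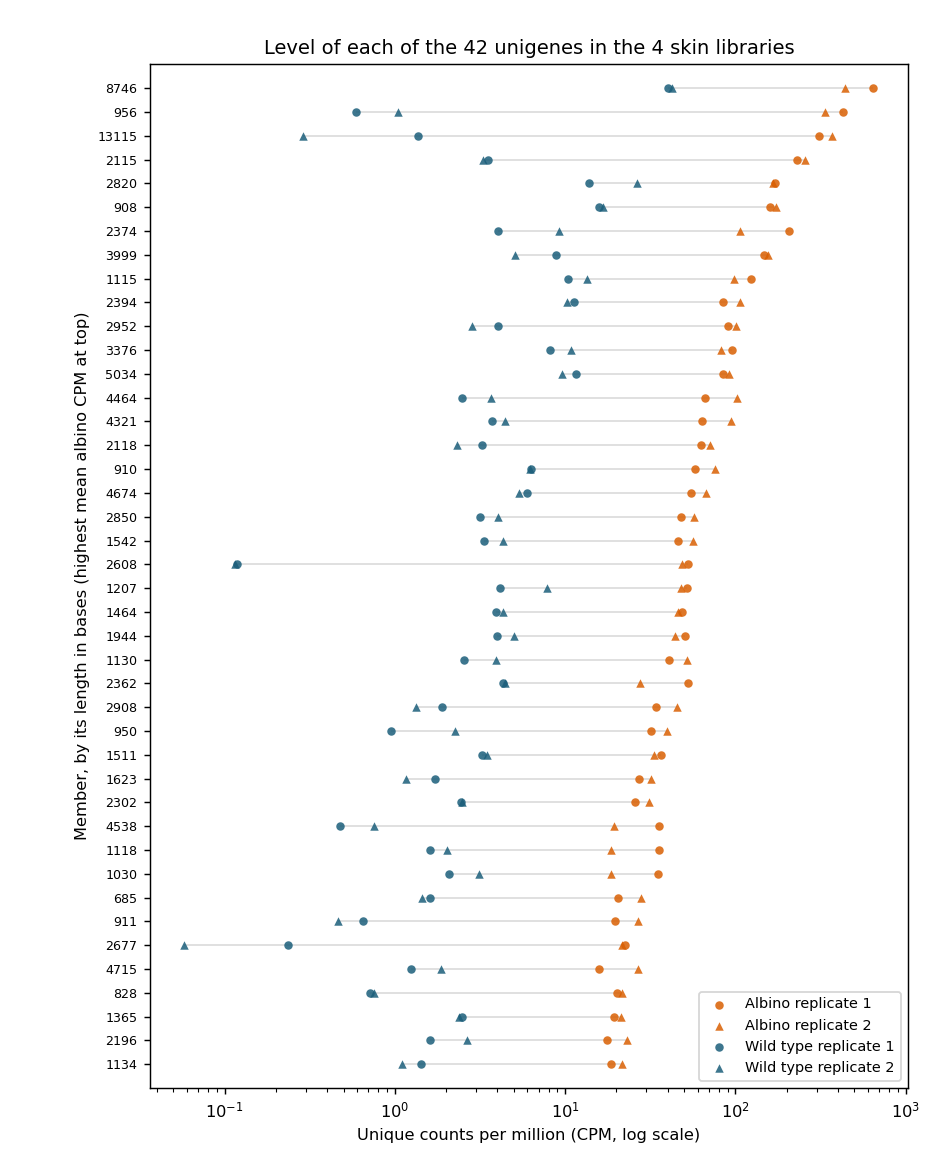
Level of each of the 42 members in each library, in CPM on a log axis, with members ordered by mean albino CPM and called by their length in bases. The albino points lie between 15.7 and 646 CPM and the wild type points between 0.0580 and 42.6 CPM. For each member both albino points lie to the right of both wild type points, which the limits of the rule fix in advance.

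Below these 10, the other 32 members reached from 20.1 to 95.6 mean albino CPM. The median over all 42 was 50.3 CPM in albino skin and 3.31 CPM in wild type skin. In albino skin 9 members were above 100 CPM and 13 were below 30. All 42 were among the 10000 most abundant unigenes by mean albino level, and 9 were among the 1000 most abundant. By mean wild type level 7 were among the 10000 most abundant and 0 among the 1000 most abundant, which restates the contrast that chose them.

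Most members lay near the ratio limit and a few far above it. The median ratio of albino to wild type level was 14.5, with quartiles of 10.3 and 24.5, while the other unigenes at the same albino level with any wild type read had a median of 1.13. A ratio under 16 was found for 25 members and a ratio from 16 to 50 for 12. The remaining 5 had ratios of 71.5 or more, and no member lay between 44.5 and 71.5. The range of counts behind these ratios was wide: 5 members had fewer than 10 counts in a wild type library, and 20 had at least 50 in both.

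Of the 5 members with the largest ratios, UniGene_171704 and the longest member rest on 28 wild type reads each, and 2 others on fewer. The member of 2608 bases had 910 and 857 counts in the albino libraries, against 2 and 2 in the wild type libraries, a ratio of 432 with a counting interval from 168 to 1586. The member of 2677 bases had 391 and 380 counts in albino, against 4 and 1 in wild type, a ratio of 149.6 with an interval from 64.3 to 465. These intervals cover counting error only. The albino libraries lay 1.07-fold apart in the member of 2608 bases and 1.04-fold apart in that of 2677 bases, and every wild type value was at or near 3 counts, so the size of the ratio is loosely fixed. For 36 of the 42 members, the counting interval of the ratio of summed counts lay wholly above 8. The rule had already put every member's ratio of mean levels at 8 or more, so this is a description and no test.

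**Figure D2:**
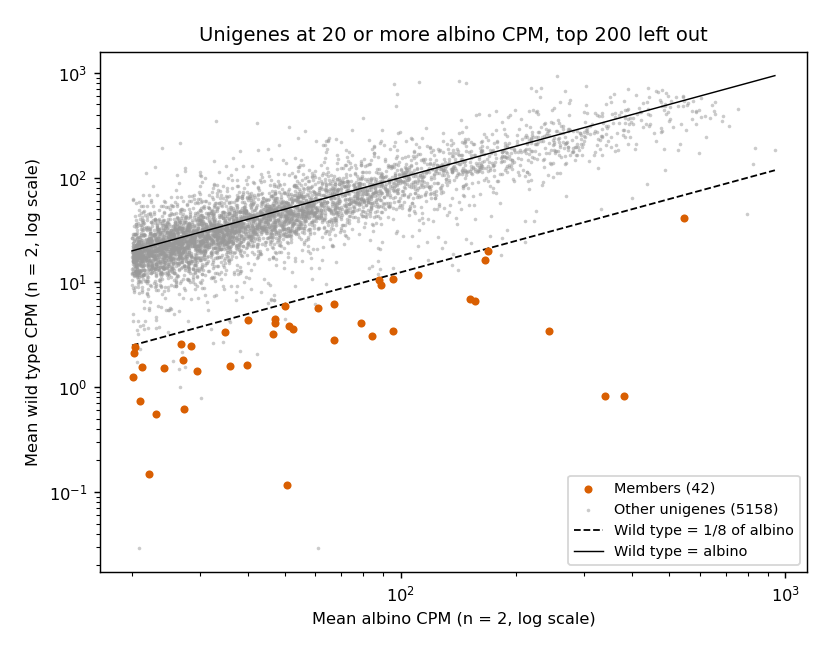
Mean wild type CPM against mean albino CPM on log axes, for the 5200 unigenes with at least 20 mean albino CPM, any wild type read and a place outside the 200 most abundant (9 without a wild type read are not drawn). The 42 members lie below the dashed line at 1/8, and the few grey points beside them missed another limit of the rule.

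The members just inside the ratio limit of 8 had ratios of 8.30, 8.34 and 8.36, and lengths of 5034, 1365 and 1207 bases. The unigenes just outside had ratios of 7.33, 7.28 and 6.93. At the limit of 20 CPM, the members just inside had mean albino levels of 20.1, 20.3 and 20.3 CPM, and the unigenes just outside had 19.8, 19.0 and 18.9 CPM. The widest albino gaps among members were 1.93-fold, 1.92-fold and 1.90-fold, and the unigenes just beyond that limit had gaps of 2.05-fold, 2.06-fold and 2.06-fold. The ratios of these last 3 were 38.3, 10.8 and 9.30, within the range of the members.

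Agreement between the wild type libraries was not part of the rule. The gap between them was 1.29-fold at the median over the 42 members, with quartiles of 1.10 and 1.54. It was under 1.5-fold for 30 members. A gap over 2-fold was found for 4 members, those of 13115, 2677, 950 and 2374 bases. Their wild type counts were 23 and 5, 4 and 1, 16 and 39, and 68 and 158. The smallest gap, 1.01-fold, belonged to the member of 910 bases, with 106 and 107 counts.

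Gaps depend on level, since few counts scatter more. For the 20 members between the members' wild type quartiles, 1.56 and 5.91 CPM, the median gap was 1.28-fold, against 1.19-fold for 10700 other unigenes in that range. In albino skin, the median gap was 1.20-fold for the 20 members from 27.6 to 93.95 CPM, against 1.12-fold for 2788 other unigenes in that range whose albino libraries were also within 2-fold. These are medians over unigenes, which are not replicates, and the difference was not tested.

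The direction of the gaps was mixed among members. By CPM, albino replicate 1 was the higher albino library for 16 members and replicate 2 for 26. These counts depend on the library scaling. The TMM scaling factors of the edgeR fit were 0.942 for albino replicate 1 and 1.096 for albino replicate 2. With them replicate 1 would stand higher against replicate 2, so some small gaps would change direction and all albino gaps would shift. The wild type factors were 0.968 and 1.001. The gaps were not recounted with TMM. In the range from 27.6 to 93.95 CPM, replicate 1 was higher for 7 of the 20 members, and for 25.2% of the 2788 other unigenes. Of the 7 members with an albino gap of at least 1.5-fold, replicate 1 was higher in 5, those of 2374, 2362, 4538, 1118 and 1030 bases. Wild type replicate 2 was higher for 25 members (59.5%), against 58.0% of the other unigenes at their albino level, and for 9 of the 12 with a wild type gap of at least 1.5-fold. Among the 16 members with albino replicate 1 higher, wild type replicate 2 was higher in 14 and wild type replicate 1 in 2. Among the 26 with albino replicate 2 higher, wild type replicate 1 was higher in 15 and wild type replicate 2 in 11. Wild type replicate 2 was thus the higher one in 87.5% of the first and 42.3% of the second set of members, against 58.1% and 58.0% of the other unigenes at their level split in the same way. This split was looked at after the values were seen and was not tested. It rests on CPM without TMM. With TMM, members of the second set with small albino gaps would pass to the first set. Those of 3999 and 2952 bases, with albino gaps of 1.05-fold and 1.11-fold, are among them, and both had wild type replicate 1 higher. The share of 87.5% would therefore fall, so the split depends on the scaling. The shares were not recomputed.

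**Figure D3:**
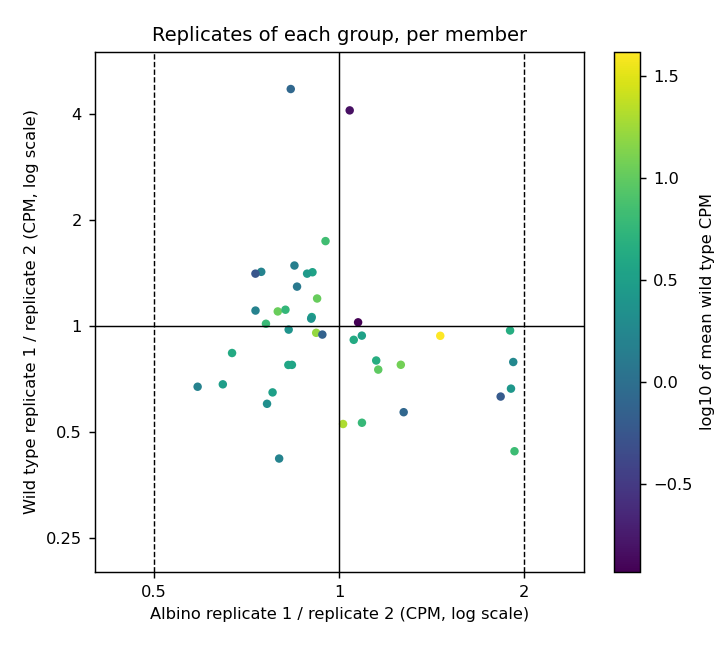
Albino replicate 1 over replicate 2 on the x axis and wild type replicate 1 over replicate 2 on the y axis, both as ratios of CPM on log axes, for each of the 42 members. Dashed lines mark the 2-fold limit of the rule on the albino libraries, colour gives the wild type level, and only 2 members lie in the upper right, where replicate 1 is higher in both groups. The positions depend on the library scaling and were not redrawn with TMM. With it more members would lie in the upper right, that of 3999 bases among them.

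The contrast was also read for unigenes chosen on 1 library per group, in the libraries left out of that choice. This is no test of the members, which the rule chose on all 4 libraries. The rule was applied to the replicate 1 libraries alone, and the unigenes found were read in the replicate 2 libraries, then the reverse. The labels do not say whether a shared number marks a shared animal or batch, or whether replicates are separate animals. The replicate 1 libraries gave 52 unigenes, 35 of them members, with a median ratio of 15.9 in the libraries they were chosen on. In the replicate 2 libraries, the median ratio of these 52 was 11.4, and 34 of them (65.4%) had a ratio of at least 8, against 1.67% of the 5209 unigenes with at least 20 mean albino CPM over both libraries and outside the 200 most abundant. A ratio of at least 2 was found for 50 of the 52, and the lowest was 1.64. Of the 34, 29 were members, for which the rule on all 4 libraries had already used these values, and 5 were among the 17 that were not members. The 17 had failed that rule, which used these values for them too, so their share was not independent either. The 5209 also include the members, so the 65.4% against 1.67% was largely fixed in advance.

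The reverse choice gave a longer list. The replicate 2 libraries gave 86 unigenes, 34 of them members, with a median ratio of 17.9. In the replicate 1 libraries, their median ratio was 6.64, and 40 (46.5%) had a ratio of at least 8, against 1.19% of the same 5209 unigenes. Of the 40, 31 were members, for which the rule had already used these values, and 9 were among the 52 that were not members. These 52 had failed the rule on all 4 libraries, so their share was not independent of it. The 46.5% against 1.19% was thus also largely fixed in advance. For 1 of the 9, wild type replicate 1 had no count, and 3 counts stood in its place. A ratio of at least 2 was found for 65 of the 86, while 8 were lower in albino than in wild type skin. The rule itself keeps members out of these 8, since its limits on the means and on the albino libraries fix the direction in each pair. Whether the choices from replicate 1 and from replicate 2 differ in how often they held was not tested.

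**Figure D4:**
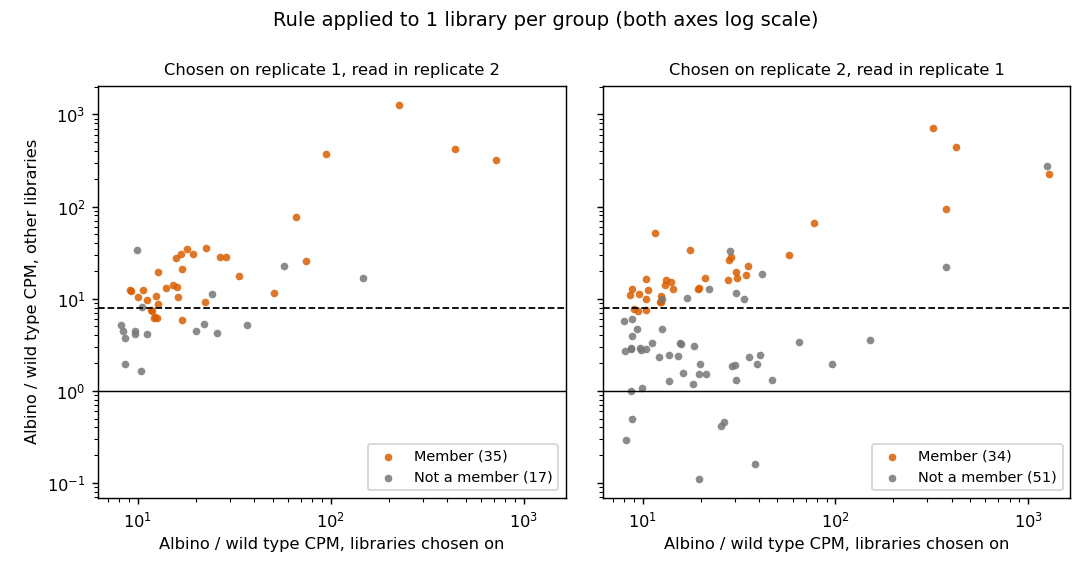
Ratio of albino to wild type CPM in the libraries a unigene was chosen on (x axis) and in the other libraries (y axis), both on log axes, with members in orange and other unigenes in grey. The dashed line marks 8 and the solid line 1, and points below 1 occur in the right panel, where 1 further unigene with no count in albino replicate 1 could not be drawn. Another unigene of that panel had no count in wild type replicate 1 and is drawn with 3 counts in its place.

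Within single libraries, not every member kept the ratio limit. Both same-numbered ratios were at least 8 for 33 of the 42 members, and the lower albino value was at least 8 times the higher wild type value for 32. The smallest such separation was 5.90-fold, in the member of 1030 bases, which had 610 and 324 counts in albino skin and 35 and 54 in wild type skin. The largest was 412-fold, in the member of 2608 bases.

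The authors also deposited FPKM, which counts fragments per kilobase, scaled to the library. In each library, 16847 to 17132 unigenes without any unique count were listed with an FPKM over 0, so it includes reads beyond the unique ones. By FPKM, 41 of the 42 members had a ratio of at least 8, and the median ratio was 14.5. For 32 members the FPKM ratio was within 20% of the ratio from unique counts. Of the other 10, the FPKM ratio was larger in 7 and smaller in 3.

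The exception was the member of 908 bases. It had 1100 and 1220 FPKM in the albino libraries, against 591 and 484 FPKM in the wild type libraries, a ratio of 2.16. Its unique counts gave a ratio of 10.2. FPKM per unique count, relative to the median of unigenes of like length, stood at 5.62 and 5.76 for the albino libraries, against 31.8 and 24.7 for the wild type libraries. This measure was above its length class in every library and highest in wild type skin, and the contrast of this member between the groups depends on which reads are taken.

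The member of 910 bases moved the other way. Its FPKM was 64.3 and 83.8 in albino skin, against 2.87 and 3.06 in wild type skin, a ratio of 24.97, while its unique counts gave 10.7. FPKM per unique count stood at 0.906 and 0.904 of the trend for the albino libraries, against 0.391 and 0.420 for the wild type libraries. The member of 2608 bases had 154 and 158 FPKM in albino skin, against 0.608 and 0.825 in wild type skin, a ratio of 218 against 432 by unique counts. In albino skin it had 7.95 and 8.72 times the FPKM per unique count of its length class.

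FPKM per unique count was more than 2 times the trend in both albino libraries for 4 members, those of 908, 2394, 2608 and 1130 bases. That is 9.52% of the members, against 1.34% of the 5167 other unigenes at their level. The median over members was 1.03 in both albino libraries, close to the trend. The levels of these 4 members are uncertain where they share reads with other unigenes, and no sequence was used here to look for such partners.

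**Figure D5:**
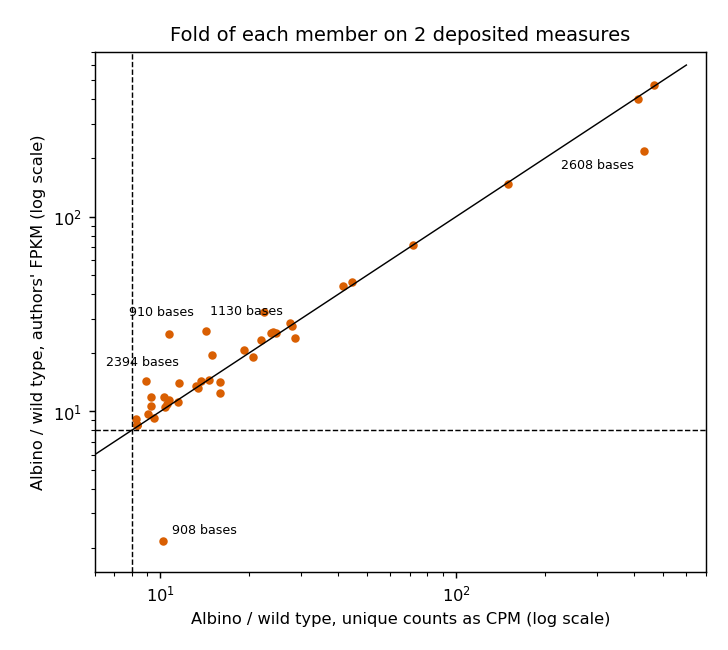
Ratio of albino to wild type level by the authors' FPKM (y axis) against the ratio by unique counts (x axis), on log axes, for the 42 members. Dashed lines mark a ratio of 8 and the solid line equality, with the member of 908 bases at 2.16 by FPKM and 10.2 by unique counts.

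Length was not part of the rule, although CPM favours longer transcripts. The members were 685 to 13115 bases long with a median of 2157 and quartiles of 1131 and 2941. The other unigenes at their albino level had a median of 2648 bases, and the 62032 unigenes read in every library a median of 742. More than 2000 bases were found in 23 of 42 members (54.8%), against 65.4% of the others at that level. The 57 unigenes of the mirrored rule had a median of 1471 bases.

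Per kilobase, the order of the members changed. In unique CPM per kilobase, UniGene_171704 was the highest in albino skin at 398, followed by the members of 908 bases at 183, of 2115 bases at 115 and of 1115 bases at 99.3. The longest member, in place 3 by CPM, stood at place 21 with 25.9. UniGene_156622, first by CPM, stood at place 7 with 62.3 in albino skin, against 4.72 in wild type skin. The lowest was the member of 4715 bases at 4.50. The median over members was 25.7 unique CPM per kilobase in albino skin and 1.66 in wild type skin.

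The shortest member, at 685 bases, had 355 and 491 counts in the albino libraries, against 27 and 25 in the wild type libraries, a ratio of 15.9. The member of 911 bases had 339 and 469 counts in albino, against 11 and 8 in wild type, a ratio of 41.4. The member of 4538 bases had 614 and 339 counts in albino, against 8 and 13 in wild type, a ratio of 44.5. These last ratios were the sixth and seventh largest, and both came from members under 30 CPM in albino skin. Large ratios were thus found across the albino levels. UniGene_171704, the longest member and the member of 2115 bases lay near the top. The member of 2608 bases, at 50.6 CPM, lay near the median, and those of 2677, 911 and 4538 bases lay near the bottom.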

How the data were processed

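Skin RNA of 2 albino and 2 wild type samples was sequenced. Ribosomal RNA was depleted and a directional kit used, per the labels' protocols. The submitters' processing notes name Trimmomatic, with no version. The sources used here give no program for assembly, alignment or counting, and no build. Each library has its own table with length, deposited unique counts, which are whole and not normalized, and the authors' FPKM, which is scaled to transcript length and library, per the file headers.

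Members were found by the rule on CPM from column sums. The members and the gene lists were chosen with earlier results of these data known. Counts of all 4 libraries were tested by edgeR's quasi-likelihood method (version 4.0.16, under R 4.3.3), with TMM, group as the only term, 2 residual degrees of freedom and edgeR's expression filter (minimum count 10, minimum total 15), which kept at least 98.8% of the counts of each library. The fit was run on simulated counts with planted changes and the same spread for all unigenes. That checks the working of the code and not the error rates in these data. DESeq2 1.42.0 and limma 3.58.1 (with a trend in the prior, 2 libraries or more at an FPKM of 1 or above) were alternatives. FPKM per unique count was FPKM times kilobases over the unique count, for at least 50 counts, divided by the median of 30 length bins. Intervals are exact (Clopper-Pearson), for the split of summed counts, and cover counting error only. A two-sided exact permutation test of 2 against 2 libraries cannot give a p under 0.333, so no single value was tested that way.

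The files hold no gene names, so at most 2 unigenes are named: the member with the highest mean albino CPM and the member with the largest ratio. Others were picked by the next levels, the next ratios, length, the limits of the rule and the gaps between wild type libraries. The members described for their FPKM or as examples in the closing paragraphs were chosen after their values were seen. Since the labels do not say that replicates are separate animals, p-values measure only the spread between these samples, which may be technical. The labels give no batch, so batch and group cannot be told apart. Alternatives were leaving out each library, other limits of the rule, other library sizes, FPKM for CPM, other filters and tests, and the replicate number as a block. The crossed block was added after seeing the data.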

Additional observations from a re-analysis of the deposited data

How the results depend on the processing

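The number of members depends on the limits of the rule. It was 104 with a ratio limit of 4, 17 with a limit of 16, 78 with an albino level of at least 10 CPM, 26 with at least 40 CPM, and 65 without the limit on the albino replicates. The rule gave 86 unigenes on the replicate 2 libraries only, and 42 to 77 with 1 library left out, the highest without albino replicate 1. With TMM library sizes 34 of the 42 remained, and with at least 10 counts in each wild type library 37. FPKM in place of CPM gave 63, of which 27 were members. Of the 15 members it left out, 14 had a mean albino FPKM under 20, and the other was the member of 908 bases, with its FPKM ratio of 2.16. FPKM changes both the scaling to length and the reads counted, and the cause of the 36 further unigenes was not tested. The median log2 fold of the members, 3.85, was 3.69 to 4.003 with 1 library left out and 3.37 as a difference of log2(CPM + 1), where the pseudocount raises low wild type levels and so shrinks the fold by construction. It stayed within the spread over library pairs (SD 0.20) with a pseudocount of 0.1, FPKM or TMM. All 42 members were called higher under each alternative to the edgeR fit that kept 2 libraries per group. The members were chosen on this contrast in these libraries, so this was nearly fixed in advance and is a description. The adjusted p cutoff of 0.01 was read from the main fit itself. Over all unigenes, 6170 were called higher, and 2497 at an adjusted p under 0.01, 3726 with the stricter filter, 3933 by DESeq2, and 1728 to 8183 with 1 library left out. These counts come from different numbers of tested unigenes and are not comparable as shares. The main fit and DESeq2 tested 37893, and the stricter filter tested 18681. The fits with 1 library left out tested 41844 to 43856. The lower count with the stricter filter thus does not show a lower share. The replicate block gave 4463 of 37893 tested, with the 42 members among them. Same-numbered libraries did not deviate alike (correlation of deviations -0.13 across unigenes). With the numbers crossed, 6532 of 37893 tested were called higher, 42 of them members. A lone library in a group is assumed to vary as the pair of the other group does. Both named unigenes kept their direction in all 13 alternatives, leaving out each library included, with log2 folds of 3.27 to 4.05 and 7.78 to 9.22. The rule had put both albino values above both wild type values, so this direction was nearly fixed in advance. The cutoff of 0.01 is 1 of the 13 and has the folds of the main fit. The cause of the other shifts was not tested. Depth limits the ratios of members with fewer than 10 wild type counts, and unique counts do not cover reads shared between unigenes.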
